A study of Homo sapiens with 9 samples.

Results

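The comparison described here is how far the response to dexamethasone departs from the response to norepinephrine, measured on transcript levels in an immortalized line of human trabecular meshwork cells. It uses all 12 library columns of the 2 deposited count tables, which carry 9 labelled samples. The DEX table holds 3 libraries from cells given dexamethasone (DEX, a synthetic glucocorticoid) at 0.1 µM and 3 vehicle libraries. The NE table holds 3 libraries from cells given norepinephrine (NE, the sympathetic transmitter) at 1 µM and 3 further vehicle libraries, named for DMSO. All cells are of a single commercial line, were grown on type I collagen, spent 24 h without serum, and were collected after 6 h of treatment. Each treatment was set against the 3 vehicle libraries in its table, and the NE effect was then subtracted from the DEX effect on the log2 scale. A positive difference therefore means a higher response to DEX than to NE. DEX was given only in the DEX table and NE only in the NE table. A difference between the treatments and a difference in how the cells behind each table respond cannot be told apart. The vehicle libraries of the NE table could not be matched to labelled vehicle samples by name. Nothing says that replicates came from separate cultures, so the p-values measure only how these samples vary, which may in part be technical.

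Glucocorticoids act through the glucocorticoid receptor, a transcription factor that moves to the nucleus, binds response elements in DNA and also restrains AP-1 and NF-kB. Norepinephrine acts at the cell surface through adrenergic receptors. Beta receptors raise cAMP, which activates protein kinase A and the factor CREB, whereas alpha receptors signal through calcium or lower cAMP. The trabecular meshwork sets the resistance to outflow of aqueous humour from the eye, and glucocorticoids and adrenergic drugs are both known to alter eye pressure.

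Library totals were 19326653 to 27337076 counts in the DEX table and 31103845 to 36216254 counts in the NE table. The first principal component carried 68.8% of the variance and separated the tables, not the treatments. Vehicle replicate 1 of the NE table stood apart from the other libraries of that table on the third component. Without that library 1243 genes differed between the effects, against 957 with it, and the opposite groups described below held 76 and 46 genes, against 55 and 42. Of 16 trabecular meshwork markers, 13 were expressed well enough to be tested, and 4 of the 13 had a called difference. MYOC, AQP1 and ANGPTL7 were at or below 1 CPM (counts scaled to library size) in every library. The lowest of the 13 by counts per library were PDPN (21 to 38), MGP (10 to 51) and CHI3L1 (10 to 85). The highest was VIM (48492 to 139819). The summed level of 6 epithelial markers, with CDH1 and KRT14 at or below 1 CPM throughout, was 428 to 444 CPM with vehicle and 322 to 338 CPM with DEX, and 209 to 259 CPM with vehicle and 163 to 189 CPM with NE. Nearly all of this sum was KRT18 (4617 to 9290 counts per library) and KRT8 (1117 to 1713), and no other member exceeded 42 counts. None of the 5 tested epithelial markers had a called difference. The summed level of 5 listed immune markers, with PTPRC, LYZ and CD3E at or below 1 CPM, was 28.7 to 31.6 CPM in the DEX table and 59.9 to 70.0 CPM in the NE table. Nearly all of this sum was CD68, at 529 to 2558 counts per library, and no other listed member exceeded 56 counts. The summed level of 7 melanocyte and Schwann cell markers, with TYR and SOX10 among those at or below 1 CPM, was 29.9 to 31.6 CPM with vehicle and 27.2 to 30.7 CPM with DEX, and 30.2 to 33.4 CPM with vehicle and 37.4 to 39.0 CPM with NE. Of its 5 tested members MITF had a called difference (-0.44), as did CSPG4 (0.28) of 6 smooth muscle and pericyte markers and 0 of 6 endothelial ones. The part of these cell type markers in the results below was not tested.

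The DEX and NE effects differed, at an adjusted p below 0.05, in 957 of 15952 genes tested, or 6.00%. The DEX effect was the higher in 619 genes (3.88%) and the lower in 338 (2.12%), and 96 and 63 of these differences exceeded 2-fold. In the same model DEX alone raised 925 genes (5.80%) and lowered 500 (3.13%), and NE alone raised 349 (2.19%) and lowered 353 (2.21%). Across all 15952 genes the effects were nearly unrelated (Pearson's r = 0.09, Spearman's rho = 0.12, given as a description over genes, which are not independent), and over the 284 genes called with both treatments r was 0.4 and rho 0.38. Most called differences came from genes that passed with a single treatment, 531 with DEX and 173 with NE, and 105 genes passed for the difference with neither effect called. Of the 284 genes called with both treatments, 187 moved in the same direction and 97, or 34.2%, moved in opposite directions. Over all genes tested, called or not, the 2 estimates had opposite signs in 6986 (43.8%), a larger share.

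**Figure D1:**
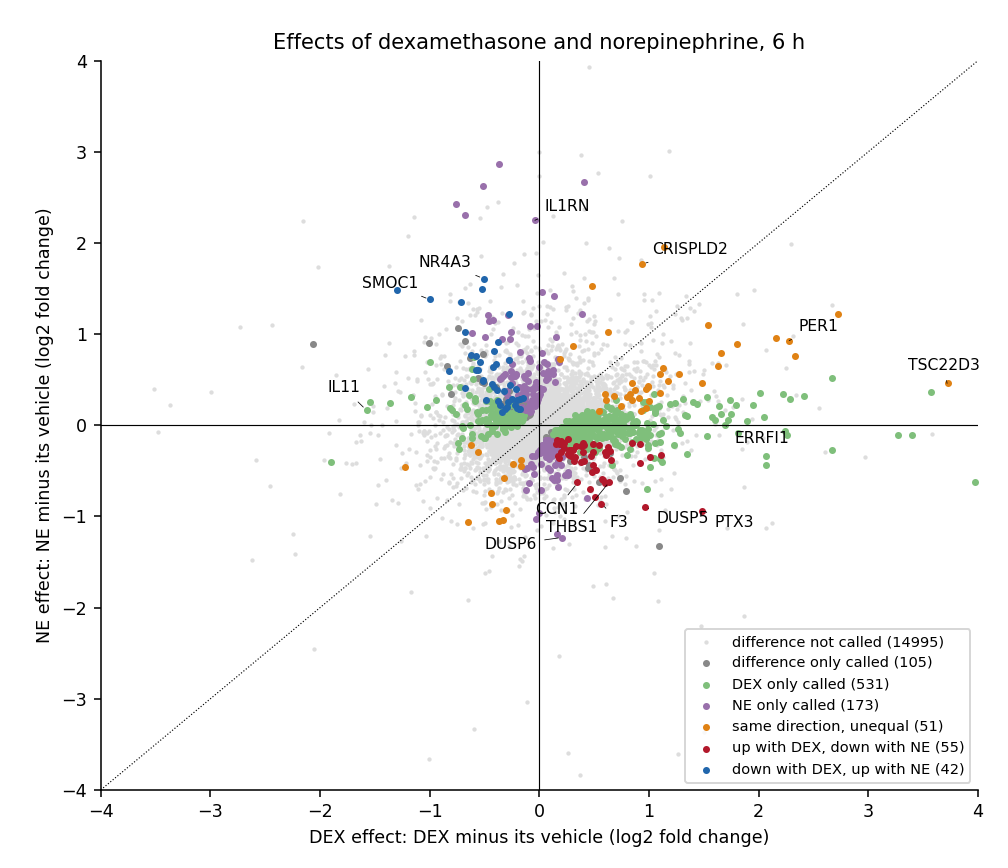
Log2 fold change after DEX (x axis) against log2 fold change after NE (y axis), each against its vehicle libraries, for the genes tested. Colours give the class of each gene with its count, the dotted line marks equal effects, and 42 genes lie outside the axes; the 55 genes up with DEX and down with NE fall at the lower right and the 42 genes down with DEX and up with NE in the upper left.

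The 97 opposite genes fell into 55 that rose with DEX and fell with NE (0.345% of genes tested) and 42 that fell with DEX and rose with NE (0.263%). In all 97 the 3 treated and the 3 vehicle libraries did not overlap in either table. Over all genes tested, 519 (3.25%) had libraries that separated in both tables and in opposite ways. The largest differences of the first group were those of PTX3, DUSP5, PKP2 and F3, and those of the second, at an average log2 CPM of at least 1, were those of SMOC1, NR4A3, EPHA5 and PTPRN.

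SMOC1, a secreted calcium-binding matricellular protein known to modulate BMP signalling, had the largest negative difference among opposite genes with an average log2 CPM of at least 1 (GENCODE 29 on GRCh38, chromosome 14, 69854131 to 70032366). It was at 15.4, 17.4 and 15.9 CPM in the vehicle libraries of the DEX table and at 7.92, 8.51 and 7.90 CPM with DEX. In the NE table it was at 14.7, 15.2 and 15.3 CPM with vehicle and at 40.1, 38.8 and 39.3 CPM with NE. Both vehicle sets were thus at nearly the same level, every DEX library was below them and every NE library above them. SMOC1 fell 2.0-fold with DEX and rose 2.61-fold with NE, so that the log2 difference between the effects was -2.38 (SE 0.08, adjusted p = 8.72e-10). The transcription factor gene NR4A3, an orphan nuclear receptor and a well-known early target of cAMP signalling, was at 13.4, 15 and 12 CPM with vehicle and at 10.9, 9.30 and 8.17 CPM with DEX. It was at 1.83, 1.62 and 1.99 CPM with vehicle and at 5.71, 5.33 and 5.56 CPM with NE. The groups separated in each table, but the vehicle libraries of the NE table were lower than those of the DEX table (log2 difference -2.89), and the NE libraries stayed below every DEX library. The difference between the effects of NR4A3 was -2.12 (SE 0.17, adjusted p = 3.12e-06).

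PTX3, a secreted pattern-recognition protein of the pentraxin family that also organizes hyaluronan matrix, had the largest difference in the other direction. Its level was 39.6, 34.7 and 32.7 CPM with vehicle and 103, 107 and 89.9 CPM with DEX. It was 88.2, 70.3 and 76.8 CPM with vehicle and 47.4, 39.6 and 35.6 CPM with NE. PTX3 rose 2.80-fold with DEX and fell 1.92-fold with NE (difference 2.43, SE 0.17, adjusted p = 4.51e-06), and the NE libraries came down to about the level of the other vehicle set. DUSP5, a nuclear phosphatase that switches off ERK (chromosome 10, 110497838 to 110511544), was at 43.1, 39.9 and 37.8 CPM with vehicle and 81.0, 81.1 and 73.4 CPM with DEX. It was at 58.1, 57.0 and 57.6 CPM with vehicle and 34.2, 29.6 and 28.7 CPM with NE. It rose 1.95-fold and fell 1.87-fold, nearly mirrored responses with a difference of 1.87 (SE 0.10, adjusted p = 6.41e-08).

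F3, which encodes tissue factor, the cell-surface initiator of the clotting cascade (chromosome 1, 94529225 to 94541800), was at 26.0, 25.8 and 24.3 CPM with vehicle and 38.8, 39.6 and 34.1 CPM with DEX. It was at 30.7, 29.2 and 31.5 CPM with vehicle and 16.4, 16.2 and 17.7 CPM with NE. The vehicle sets lay between the raised and the lowered libraries, and the difference was 1.43 (SE 0.09, adjusted p = 3.68e-07). CCN1, a matricellular ligand of integrins and a target of the Hippo pathway factors YAP and TAZ (chromosome 1, 85580761 to 85583962), was at 203, 208 and 202 CPM with vehicle and 260, 269 and 251 CPM with DEX. It was at 184, 183 and 190 CPM with vehicle and 123, 112 and 126 CPM with NE. Its rise of 1.27-fold with DEX was small beside its fall of 1.54-fold with NE, and the difference was 0.97 (SE 0.06, adjusted p = 4.87e-07). THBS1, the matricellular protein thrombospondin 1, which activates latent TGF-beta, was at 116, 115 and 120 CPM with vehicle and 182, 183 and 180 CPM with DEX. It was at 77.9, 85.8 and 92.6 CPM with vehicle and 56.7, 54.1 and 55.9 CPM with NE. No group overlapped its control, and the difference was 1.26 (SE 0.07, adjusted p = 2.87e-07).

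**Figure D2:**
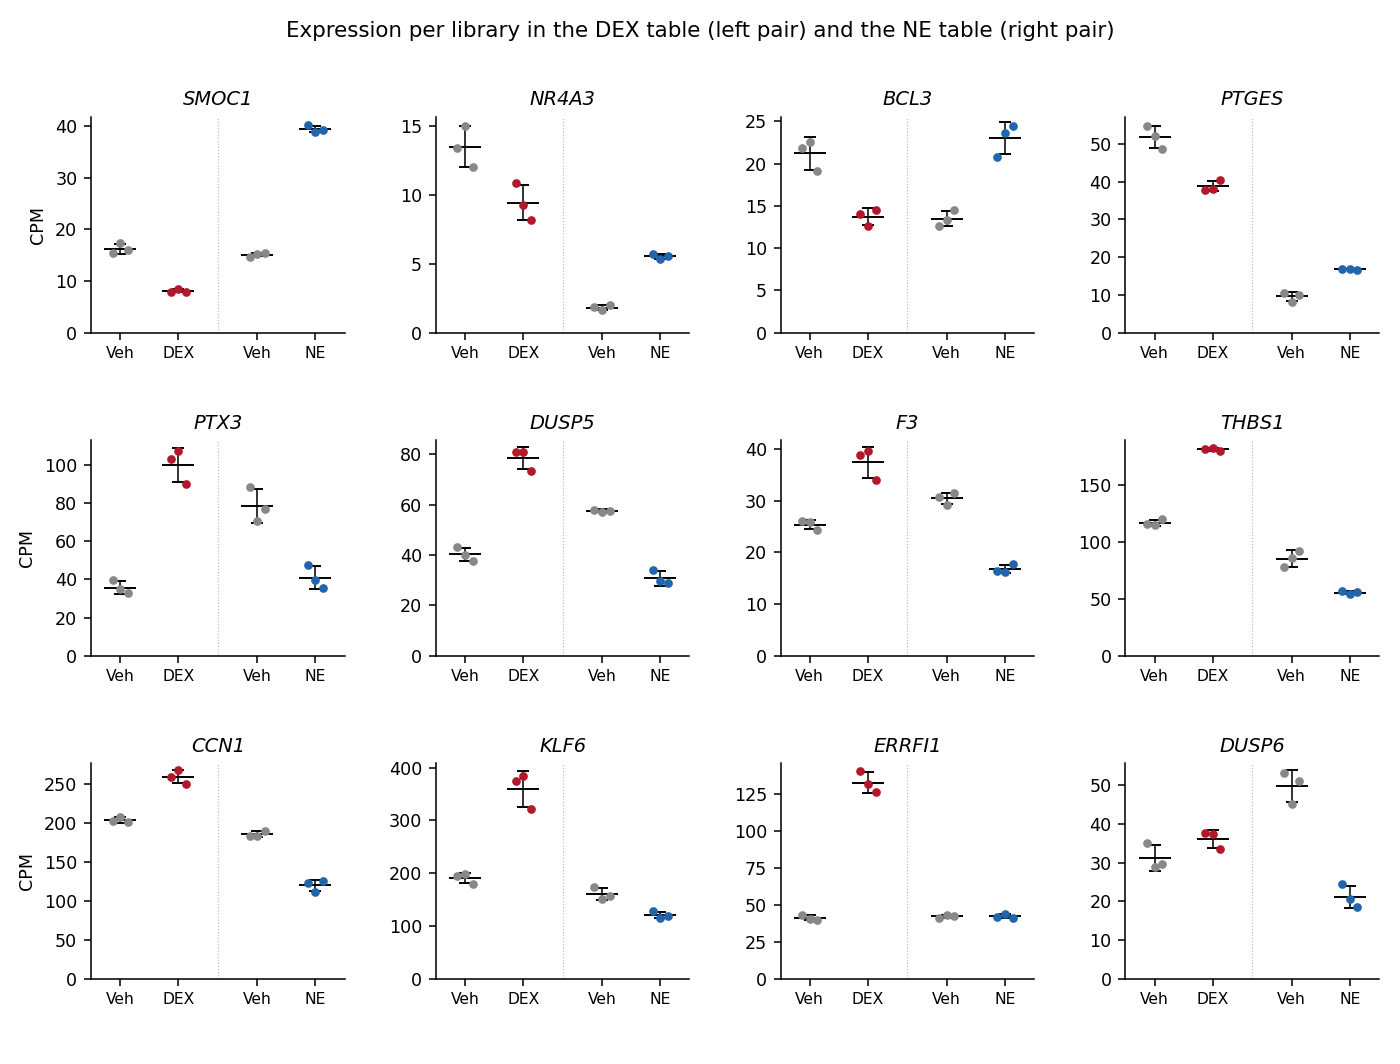
Expression in CPM (y axis, from 0) in each of the 12 libraries for 12 genes; points are libraries, bars the mean and SD over 3, the left pair is the DEX table and the right pair the NE table. SMOC1, NR4A3, BCL3 and PTGES fell with DEX and rose with NE, the next 6 genes did the reverse, ERRFI1 rose with DEX and was at most 44.0 CPM in the 9 libraries without it, and DUSP6 fell with NE.

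Promoter sequences are shown for SMOC1 and NR4A3, the leading genes down with DEX and up with NE, for PTX3, the leading gene of the reverse group, and for F3 and THBS1 of that group, which were chosen after their motifs were seen. They are RefSeq windows on GRCh38.p14, from 250 bases before the annotated start to 50 bases after it, written 5′ to 3′ along the gene, with the motifs found in capitals. The motifs searched on both strands were the full cAMP response element TGACGTCA, its core TGACG, the AP-1 site TGANTCA, the glucocorticoid receptor hexamer AGAACA, the TEAD site GGAATG, the EGR site GCGTGGGCG and the CArG box of SRF. The core lies within the full element, and it was added after the NR4A3 sequence had been read.
SMOC1 (chr14:69879166-69879465, plus strand): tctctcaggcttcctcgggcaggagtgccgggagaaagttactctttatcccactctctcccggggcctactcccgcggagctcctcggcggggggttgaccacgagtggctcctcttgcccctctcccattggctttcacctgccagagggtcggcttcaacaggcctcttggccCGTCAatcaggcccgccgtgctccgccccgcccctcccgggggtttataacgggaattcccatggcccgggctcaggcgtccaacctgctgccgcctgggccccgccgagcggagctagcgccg
NR4A3 (chr9:99821635-99821934, plus strand): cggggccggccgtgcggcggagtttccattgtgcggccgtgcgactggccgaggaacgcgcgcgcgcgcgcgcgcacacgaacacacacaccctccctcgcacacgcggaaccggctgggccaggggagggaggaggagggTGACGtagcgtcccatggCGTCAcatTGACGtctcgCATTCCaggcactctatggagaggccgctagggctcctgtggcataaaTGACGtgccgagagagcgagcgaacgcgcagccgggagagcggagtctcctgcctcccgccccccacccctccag
PTX3 (chr3:157436600-157436899, plus strand): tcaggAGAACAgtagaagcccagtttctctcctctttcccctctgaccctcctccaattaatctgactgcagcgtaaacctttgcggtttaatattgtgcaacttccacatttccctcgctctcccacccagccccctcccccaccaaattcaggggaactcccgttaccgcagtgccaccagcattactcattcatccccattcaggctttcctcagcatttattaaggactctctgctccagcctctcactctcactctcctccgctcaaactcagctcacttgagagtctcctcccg
F3 (chr1:94541710-94542009, minus strand): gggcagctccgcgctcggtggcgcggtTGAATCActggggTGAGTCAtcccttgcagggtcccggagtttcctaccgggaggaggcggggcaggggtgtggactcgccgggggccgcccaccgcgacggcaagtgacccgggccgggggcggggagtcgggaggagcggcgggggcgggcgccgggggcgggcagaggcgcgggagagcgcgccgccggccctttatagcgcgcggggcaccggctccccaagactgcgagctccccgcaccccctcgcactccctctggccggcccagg
THBS1 (chr15:39580829-39581128, plus strand): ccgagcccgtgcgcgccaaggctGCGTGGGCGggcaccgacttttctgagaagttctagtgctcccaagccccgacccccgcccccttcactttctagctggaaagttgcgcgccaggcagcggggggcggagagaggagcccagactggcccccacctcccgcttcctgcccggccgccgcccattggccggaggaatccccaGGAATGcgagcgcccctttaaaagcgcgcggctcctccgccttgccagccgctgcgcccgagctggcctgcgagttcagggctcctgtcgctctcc

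The NR4A3 window held 4 copies of the cAMP response element core, at -109, -91, -83 and -25 from the start site, and a TEAD site at -73. As many or more copies were found in 64 of 11489 promoters of tested genes (0.557%), a share for a motif added after this sequence was read. The full cAMP element was not in the NR4A3 window. SMOC1 had a single core at -74 from its RefSeq start, and 33.5% of promoters held at least 1. The PTX3 window held a glucocorticoid receptor hexamer at -245. The F3 window held a pair of AP-1 sites, at -223 and -210, and F3 was the 1 promoter of 40 in its group with such a site (2.5%, against 4.74% of all promoters). The THBS1 window held an EGR site at -227 (1.26% of all promoters) and a TEAD site at -46 (10.9%). None of the motifs was in the KLF6 window, and the PTGES window held an EGR site at -82 and no core. At least 1 core was in 8 of 40 promoters of genes up with DEX and down with NE and in 11 of 33 of the reverse group (20% and 33.3%, against 33.5% of all). The glucocorticoid receptor hexamer was in 3 of 40 and 3 of 33 (7.5% and 9.09%, against 9.07% of all). The full cAMP element was in 0 of 40 and 1 of 33 (3.14% of all). These matches are letters in a short window and do not show binding.

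Further members of the group up with DEX and down with NE follow. KLF6, a zinc-finger factor induced early by many stimuli, was at 195, 198 and 179 CPM with vehicle, 374, 384 and 321 CPM with DEX, 174, 151 and 157 CPM with the other vehicle and 128, 115 and 119 CPM with NE. Its difference was 1.33 (SE 0.10, adjusted p = 3.12e-06), with a larger response to DEX than to NE. The desmosomal plaque protein PKP2 (difference 1.43), the hyaluronan synthase HAS2 (1.30), the prostaglandin E2 receptor PTGER4 (1.18) and the forkhead factor FOXL1 (1.36) belonged to the same group. HAS2 went from 4.39 to 4.57 CPM with vehicle to 5.78 to 6.98 CPM with DEX, and from 9.90 to 11.9 CPM to 5.87 to 6.79 CPM with NE. The splicing regulator SRSF12, below 3 CPM in every library, had the least certain difference of the 10 largest (1.24, SE 0.23, adjusted p = 0.00375).

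Other members of that group, chosen as examples after their values were seen, were the chromatin protein HMGA2 (difference 1.16), the Wnt ligand WNT5B (1.16), the insulin receptor substrate IRS2 (1.12), the transcription factor MYC (1.04), the NF-kB inhibitor NFKBIA (1.03) and the pseudokinase TRIB1 (1.01). The caveolae components CAV1 and CAV2 (0.63 and 0.53), the anti-apoptotic BCL2L1 and MCL1 (0.78 and 0.58), the lysophosphatidic acid receptor LPAR1 (0.62) and the short-chain collagen COL8A1 (0.51) were also in it. Over the 55 genes the median effect was 0.40 with DEX and -0.32 with NE, and 16 differences exceeded 2-fold. All 55 are annotated as protein-coding, against 90.7% of genes tested.

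The reverse group held several signalling and metabolic genes. BCL3, an atypical IkB protein that acts with NF-kB p50 or p52, was at 21.9, 22.6 and 19.1 CPM with vehicle and 14, 12.6 and 14.5 CPM with DEX. It was at 12.6, 13.3 and 14.5 CPM with vehicle and 20.8, 23.6 and 24.5 CPM with NE. The response had nearly the same size in each direction, a fall of 1.54-fold and a rise of 1.70-fold (difference -1.40, SE 0.12, adjusted p = 6.31e-06). PTGES, the microsomal synthase of prostaglandin E2, was at 54.7, 52.1 and 48.7 CPM with vehicle and 37.9, 38.0 and 40.4 CPM with DEX, and at 8.06 to 10.6 CPM with vehicle and 16.8, 16.8 and 16.7 CPM with NE. Its difference was -1.23 (SE 0.11, adjusted p = 7.75e-06), and as with NR4A3 its NE libraries stayed below its DEX libraries. PTGES was not among the 10 largest of its group and was chosen as an example after its values were seen. Spermine oxidase SMOX (-1.34), the secretory granule protein PTPRN (-2.02), the ephrin receptor EPHA5 (-2.07), the Hes family factor HES4 (-1.29) and the reductase DHRS2 (-1.24) were among the 10 largest, together with NCKAP5 (-1.50) and FAM13C (-1.42).

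PTPRN was at 4.17 to 6.11 CPM with vehicle and 3.18 to 3.96 CPM with DEX, and at 2.58 to 3.02 CPM with vehicle and 7.32 to 8.37 CPM with NE. Its rise with NE (log2 1.5) was larger than its fall with DEX (-0.52), and NCKAP5 was uneven in the same way (1.22 and -0.27). Further members of this group, chosen after their values were seen, were the cyclic nucleotide phosphodiesterase PDE3A (-0.99), the bicarbonate cotransporter SLC4A4 (-1.07), the antiviral protein OASL (-1.09), the cytosolic phospholipase PLA2G4A (-0.54), the insulin-like growth factor carrier IGFBP3 (-0.88) and the angiogenic factor VEGFA (-0.37). The pseudogene CSPG4BP had the largest estimate of the 42 (-2.78, SE 0.42) at no more than 2 CPM in any library, and its counts may be shared with its parent gene CSPG4. Over the 42 genes the median effect was -0.39 with DEX and 0.45 with NE, and 19 differences exceeded 2-fold.

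**Figure D3:**
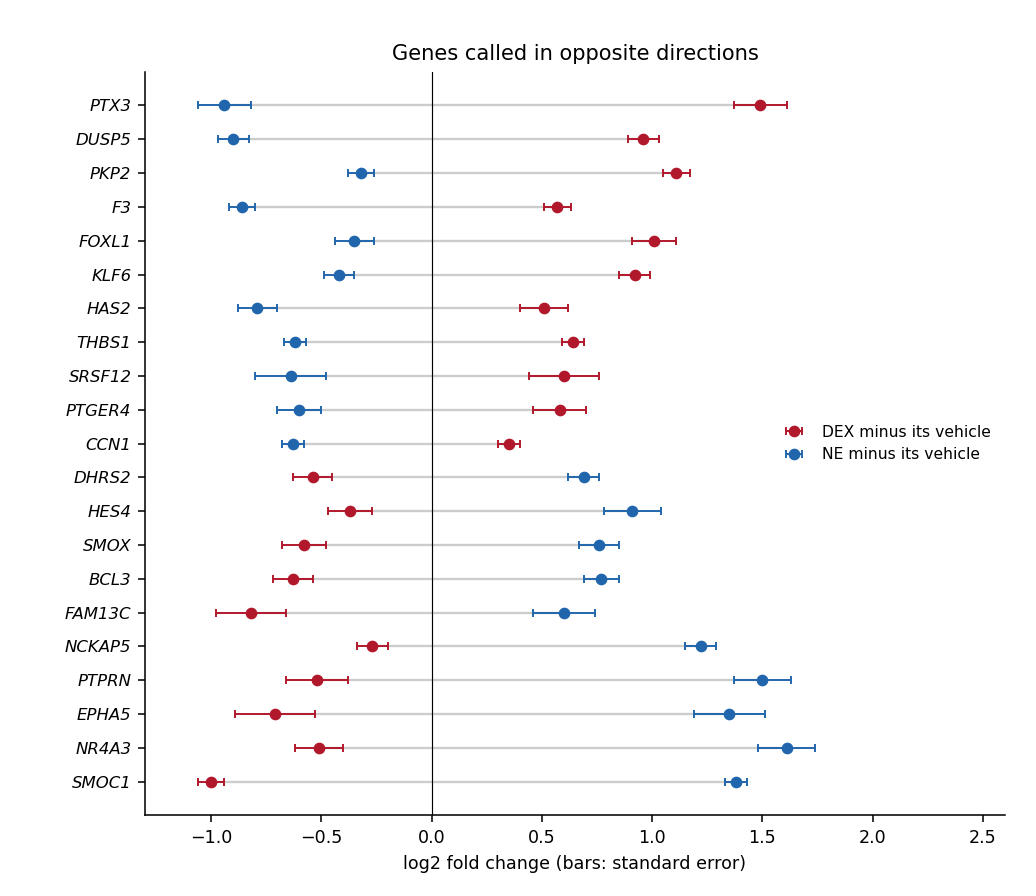
Log2 fold change after DEX (red) and after NE (blue) with standard errors for the 10 largest differences in each opposite group among genes averaging 1 log2 CPM or more, and CCN1. From PTX3 down to CCN1 the red points lie right of 0 and the blue points left, and from DHRS2 down to SMOC1 the order is the reverse.

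The starting levels of the opposite genes were uneven between the tables. Among the 55 genes up with DEX and down with NE, the vehicle libraries of the NE table were called higher than those of the DEX table in 37 (67.3%) and lower in 11. Among the 42 genes of the reverse group they were called lower in 23 (54.8%) and higher in 10 (23.8%). Over all genes tested, 4108 (25.8%) were higher and 4118 (25.8%) lower. The median difference in starting level, NE-table vehicle minus DEX-table vehicle, was 0.34 in the first group and -0.28 in the second. Starting level and effect share the vehicle libraries, so an effect that depends on starting level and a chance tie through those libraries cannot be told apart. SMOC1 (-0.10), CCN2 (-0.05) and CCN1 (-0.14) started at close levels in both tables.

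The count of 42 was the less stable. With same-numbered libraries of the NE table treated as pairs it was 67, and without single libraries it was 26, 24, 23, 26, 27, 20 and 26 when, in order, vehicle 1, vehicle 2 or DEX 2 of the DEX table, or vehicle 2, vehicle 3, NE 2 or NE 3 of the NE table was left out. The count of 55 was 34 without NE replicate 2. In every alternative tried, 26 of the 55 and 10 of the 42 stayed in their group. The 10 were SMOC1, NR4A3, BCL3, PTGES, SMOX, DHRS2, IGFBP3, OASL, SLC4A4 and HERC4, and the 26 included PTX3, DUSP5, F3, CCN1, THBS1, KLF6, PKP2, HAS2 and PTGER4. MYC, IRS2, CCN2, FOXL1 and SRSF12 of the first group, and EPHA5, PTPRN, NCKAP5, FAM13C and HES4 of the second, left it in at least 1 alternative because an effect no longer passed. Of 12 fits with a library left out, CCN2 stayed in 12, EPHA5 in 9, and IRS2, NCKAP5 and FAM13C in 7. MYC, PTPRN and HES4 stayed in 6, FOXL1 in 4 and SRSF12 in 3. Among members chosen after their values were seen, LPAR1 stayed in 11, PDE3A in 9, PLA2G4A in 8, CAV2 in 7, and COL8A1 and VEGFA in 6. The others so chosen, apart from MYC and IRS2, stayed in all 12.

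Of the 187 genes called in the same direction with both treatments, 51 (0.320% of genes tested) responded unequally. Both treatments raised 38 of them, and DEX raised 32 of these more. TSC22D3, which encodes the glucocorticoid-induced leucine zipper protein GILZ, was at 7.39, 7.78 and 8.69 CPM with vehicle and 103, 111 and 102 CPM with DEX. It was at 11.5, 10.9 and 11.5 CPM with vehicle and 16.1, 14.7 and 16 CPM with NE. Both effects separated the libraries, but the difference was 3.26 (SE 0.09, adjusted p = 1.25e-10). The clock repressor PER1 (difference 1.35), the serotonin receptor HTR1B (1.57), the potassium channel KCNH5 (1.5), the Kruppel-like factor KLF9 (0.98) and the G protein regulator RGS2 (0.91) rose more with DEX. KCNH5 was at 0.440 to 0.582 CPM with vehicle in the DEX table, and its difference lost its call in 5 alternatives (adjusted p 0.0508 to 0.0635).

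NE raised 6 of the 38 genes more than DEX did. CRISPLD2, a secreted protein known as a glucocorticoid target, was at 48.9, 51.2 and 52.8 CPM with vehicle and 101, 96.5 and 94.8 CPM with DEX. It was at 18.2, 19.1 and 18.5 CPM with vehicle and 62.2, 63.7 and 64.2 CPM with NE. NE thus produced the larger fold change of CRISPLD2 (difference -0.83, SE 0.06, adjusted p = 2.01e-06) from a lower starting level. The other 5 were the calcineurin-regulated factor NFATC2 (-1.05), the glycosyltransferase GALNT15 (-0.82), the stress factor ATF3 (-0.56), the complement regulator CD55 (-0.54) and DDIT4, an inhibitor of mTOR complex 1 (-0.39). Both treatments lowered 13 genes, of which 10 fell further with NE, among them cyclin D1 (CCND1, 0.71), EGR1 (0.69), FGF5 (0.43), FOSL1 (0.41) and EPHA2 (0.30). CCND1 was at 136 to 145 CPM with vehicle and 106 to 118 CPM with DEX, and at 366 to 413 CPM with vehicle and 178 to 212 CPM with NE. The count of 51 was 31 without NE replicate 3, and 23 of the 51 stayed unequal in the same direction in every alternative. ATF3 stayed in 1 of 12 fits with a library left out, NFATC2 in 4, CD55 in 7, and HTR1B, KCNH5 and EPHA2 in 8 each.

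Among genes called with a single treatment that had a symbol and an average log2 CPM of at least 1, the 4 largest differences of each sign were as follows. SLC16A12, a creatine transporter, rose with DEX from 1.47 to 1.54 CPM to 5.46 to 7.15 CPM and was at 1.77 to 3.20 CPM with vehicle and 1.85 to 1.96 CPM with NE (difference 2.51). F2RL1, the protease-activated receptor 2 (2.40), the collagen-binding integrin subunit ITGA10 (2.36) and RGCC (2.15) were alike in that DEX raised them and NE did not pass. IL1RN, the interleukin-1 receptor antagonist, was at 5.19, 4.39 and 3.59 CPM with vehicle and 3.92, 4.29 and 4.52 CPM with DEX, which overlapped. It was at 2.64, 2.26 and 1.82 CPM with vehicle and 10.3, 11 and 10.6 CPM with NE. The difference of IL1RN was -2.29 (SE 0.20, adjusted p = 5.45e-06). The cytokines IL11 (-1.75) and IL1B (-1.61) and the cation channel TRPC4 (-1.48) fell with DEX and did not pass with NE. IL1B was at 11.5 to 13.6 CPM with vehicle and at most 6.18 CPM with DEX, and went from 15.7 to 16.7 CPM to 17.1 to 20.6 CPM with NE.

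Differences were then counted over 17 gene lists drawn from known pathways, each read against 3.88% of all genes with a higher and 2.12% with a lower DEX effect. The median difference over all genes tested was 0.00. List members named beyond the largest differences were chosen as examples after their values were seen.

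On the list of the glucocorticoid response 17 of 25 genes had a higher DEX effect and 2 a lower one, with a median difference of 1.03. ERRFI1, the feedback inhibitor of the EGF receptor, gave a plain contrast. It was at 43.2, 40.8 and 39.9 CPM with vehicle and 141, 132 and 127 CPM with DEX, and at 41.2, 43.4 and 42.7 CPM with vehicle and 42.1, 44.0 and 41.6 CPM with NE. The NE libraries overlapped their vehicle, the DEX libraries stood far above theirs, and the difference was 1.69 (SE 0.07, adjusted p = 7.45e-09). The thiamine transporter SLC19A2 (1.66), the Kruppel-like factor KLF15 (2.01) and the receptor chaperone FKBP5 (1.49) were called with DEX and not with NE. The 2 lower genes were CRISPLD2 and DDIT4, described above. The list is not free of NE responses, since NE raised 9 of its members and lowered 1, NFKBIA.

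On the list of cAMP and CREB targets 8 of 23 genes had a lower DEX effect and 2 a higher one, with a median of -0.40. NE raised 13 and lowered 0, and DEX raised 9 and lowered 1. CREB5, a CREB family factor, was at 30.5, 38.4 and 36.3 CPM with vehicle and 62.2, 67.7 and 73.5 CPM with NE, and at 65.1, 69.8 and 69.4 CPM with vehicle and 58.8, 60.8 and 50.1 CPM with DEX. Its DEX effect did not pass and its difference was -1.22 (SE 0.13, adjusted p = 5.41e-05). The neuropeptide precursor VGF (-0.87), the cAMP phosphodiesterases PDE4B (-0.76) and PDE7B (-0.56) and CREM (-0.49) were alike in passing with NE and not with DEX. IL6 had a called difference of -1.37 with neither effect called (adjusted p 0.0699 with DEX and 0.119 with NE). The log2 estimates of IL6 were -0.64 with DEX and 0.74 with NE, each against its own vehicle. Its treated level was nonetheless higher with DEX (3.79 ± 1.10 CPM) than with NE (1.72 ± 0.27 CPM; SD, n = 3), because its vehicle level was higher in the DEX table. The IL6 difference lost its call with thinned counts, without vehicle replicate 2 of the NE table and without NE replicate 3 (adjusted p 0.0516 to 0.117). The 2 genes with a higher DEX effect, PER1 and RGS2, rose with both.

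On the list of ERK targets and feedback genes 10 of 19 had a higher DEX effect and 0 a lower one, with a median of 0.51. NE lowered 16 and raised 0, whereas DEX lowered 7 and raised 3. DUSP6, the cytoplasmic ERK phosphatase, was at 53.1, 45.3 and 51.2 CPM with vehicle and 24.4, 20.7 and 18.6 CPM with NE, and at 35.2, 28.9 and 29.8 CPM with vehicle and 37.6, 37.4 and 33.6 CPM with DEX. The DEX and vehicle libraries of DUSP6 overlapped and the difference was 1.44 (SE 0.14, adjusted p = 3.28e-05). The Sprouty inhibitors SPRY4 (1.36) and SPRY2 (0.72) and the phosphatase DUSP4 (0.59) fell with NE and did not pass with DEX. DUSP5 and MYC were the members that moved in opposite directions.

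Transcription factors of the AP-1 and immediate early list went both ways, with 8 of 27 higher and 5 lower (median 0.09). JUN fell with NE, from 131 to 139 CPM to 63.6 to 67.3 CPM, and was at 136 to 159 CPM with vehicle and 117 to 163 CPM with DEX (difference 0.99). On the list of YAP and TAZ targets 8 of 22 were higher and 3 lower (median 0.24), led by F3, CCN1 and CCN2, which moved in opposite directions, and by the reverse case IGFBP3. CCN2, also known as connective tissue growth factor, was at 144 to 148 CPM with vehicle and 218 to 226 CPM with DEX, and at 132 to 147 CPM with vehicle and 108 to 128 CPM with NE (difference 0.89). Other well-known targets on the list did not pass, such as ANKRD1 (1.75, SE 0.75) and AXL.

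On the list of coagulation and plasminogen activation 5 of 15 genes had a higher DEX effect, among them F2RL1, F3, tissue plasminogen activator PLAT (0.69) and the thrombin receptor F2R (0.39). The protease inhibitor TFPI2 had a lower one (-0.61). On the matricellular list 4 of 16 differed, and all 4 were opposite genes, THBS1, CCN1, CCN2 and SMOC1, although CCN2 was no longer opposite when each effect was taken from its own table. Structural matrix genes had 5 higher and 0 lower of 31 (median 0.19), COL8A1, the lysyl oxidases LOX (0.41) and LOXL1 (0.29), and the collagen chains COL1A2 (0.24) and COL1A1 (0.23). All 5 differences were small, and COL1A2 and LOXL1 lost their calls without single libraries (adjusted p up to 0.0580 and 0.0575). The count of 5 ran from 2 to 12 with single libraries left out. Of 23 contractility genes and targets of SRF, RHOB was higher (0.25) and CNN1 lower (-0.29), and each lost its call in at least 10 alternatives.

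The TGF-beta and BMP list was split, with 6 of 27 higher and 6 lower (median -0.10). Higher DEX effects were found, among others, for BMP2 (0.96), the latent TGF-beta binding protein LTBP1 (0.79) and the receptors TGFBR1, TGFBR2 and TGFBR3. Lower ones were found, among others, for BMP6 (-3.14), the activin subunit INHBA (-1.24), the activin antagonist FST (-1.11), ID4 and TGFB2. BMP6 averaged below 1 log2 CPM, at 14 to 128 counts per library. INHBA averaged 36.1 ± 4.1 CPM in the vehicle and 20.3 ± 3.0 CPM in the DEX libraries, and 6.83 ± 0.38 CPM in the vehicle and 9.13 ± 0.76 CPM in the NE libraries (SD, n = 3), where the fall passed and the NE effect did not. Of 21 insulin and FOXO genes 10 were higher and 1 lower (median 0.28), among them FOXO3, which averaged 73.8 ± 2.3 CPM in the vehicle and 160 ± 4.9 CPM in the DEX libraries, and 91.9 ± 6.7 and 86.7 ± 2.2 CPM in the other vehicle and the NE libraries (difference 1.2). The regulatory subunit PIK3R1 (0.86) and the receptor substrates IRS1 (0.99) and IRS2 were further members of that kind.

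On the list of EGF and FGF ligands and receptors 3 of 24 were higher and 6 lower. Hepatocyte growth factor HGF (-1.46), FGFR2 (-1.18) and FGFR3 (-0.87) rose with NE and did not pass with DEX. FGFR2 was at 26.7 to 28.4 CPM in the vehicle libraries of the DEX table and at 0.932 to 1.64 CPM in those of the NE table, the widest starting gap among them. Of 26 inflammatory and NF-kB genes 3 were higher, PTX3, NFKBIA and the adhesion molecule VCAM1 (0.97), and 6 lower, IL1RN, CXCL12, IL11, IL1B, IL6 and NFKB2. CXCL12 averaged below 1 log2 CPM, at 9 to 98 counts per library. DEX lowered 11 members and NE lowered 9. Clock genes gave 4 of 23 higher and 2 lower, with NPAS2 (0.99) called with DEX and NR1D1 (-0.86) with NE.

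The cell cycle list had 2 higher and 4 lower of 31, with differences of at most 0.77 in size (CDKN2B), and cholesterol synthesis had 1 of 20, a share near the 6.00% of all genes. Of 18 tested adrenergic receptors and G protein regulators 4 were higher, RGS2, RGS4 (0.59), the catecholamine-degrading enzyme MAOA (0.85) and ADRA1B (1.51). ADRA1B, an alpha receptor, was at 0.880, 1.16 and 0.579 CPM with vehicle and 1.79, 1.43 and 1.26 CPM with DEX, and at 0.653, 0.917 and 0.883 CPM with vehicle and 0.473, 0.423 and 0.590 CPM with NE. The libraries separated in each table, yet neither effect passed (adjusted p = 0.0842 and 0.202) while their difference did (adjusted p = 0.0284, SE 0.38).

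**Figure D4:**
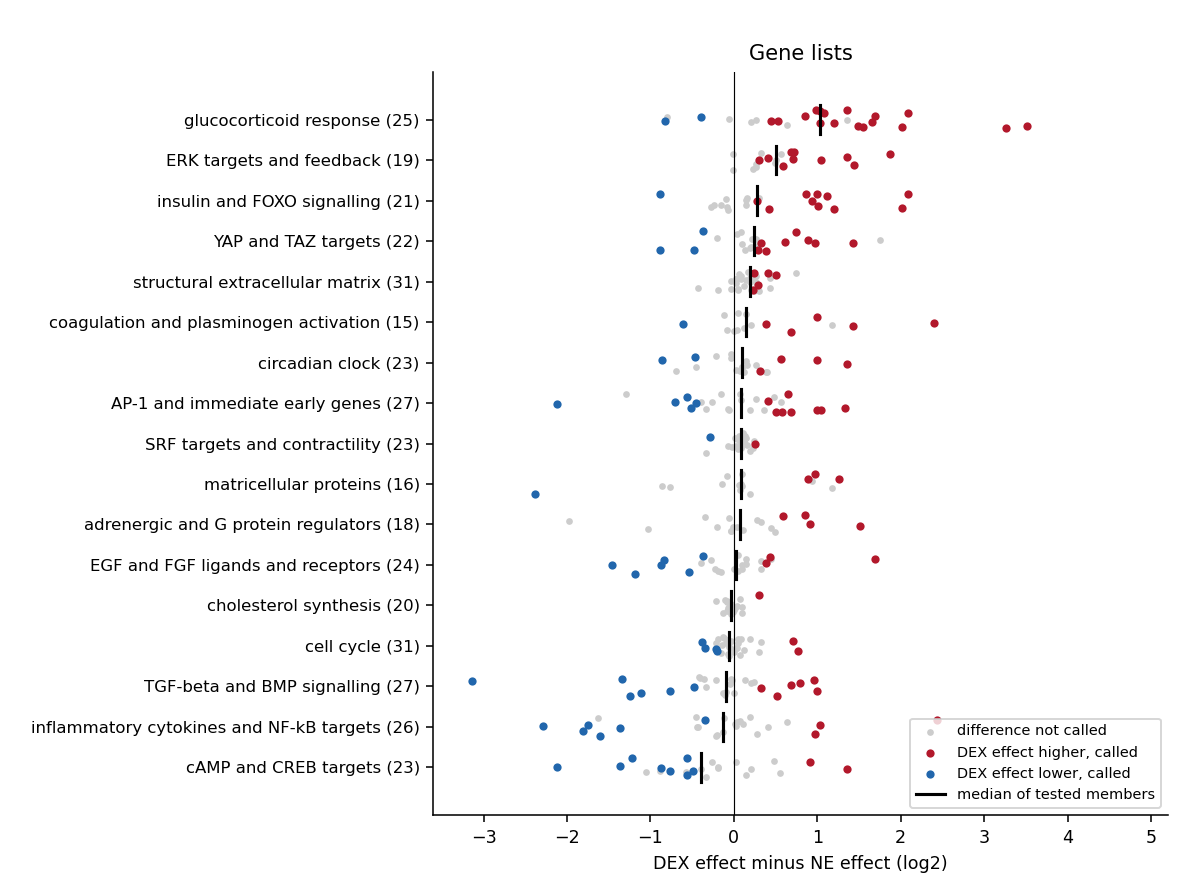
DEX effect minus NE effect in log2 units (x axis) for each tested member of 17 gene lists (y axis, number tested in parentheses), with called differences in red or blue, others in grey and the list median as a black bar. The medians run from -0.40 for cAMP and CREB targets to 1.03 for the glucocorticoid response, and ERK targets hold called members on the right side of 0 and none on the left.

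Several named genes overlap another annotated gene, and since the strand setting is not given in the sources used here, reads of the pair cannot be told apart. These include PTX3 with VEPH1, THBS1 with FSIP1, SMOC1 with a ribosomal protein pseudogene, PTGER4 with TTC33, FAM13C with PHYHIPL, TSC22D3 with NCBP2L, CCND1 with LTO1 and IL6 with STEAP1B.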

How the data were processed

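The authors deposited expected counts, which are estimates, in 2 tables of 37247 genes, and 49.3% to 55.6% of the nonzero values per library were fractional. Not given in the sources used here are the aligner, counting tool, genome build, strand setting and library kit. Expected counts were rounded, which changed no total by more than 0.000918%. Symbols matched 34436 identifiers, and annotation came from GENCODE 29 (34620 identifiers).

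All 12 libraries were fitted in 1 model of 4 group means with edgeR 4.0.16 in R 4.3.3 (filterByExpr, TMM, robust quasi-likelihood F-test, two-sided, Benjamini-Hochberg over 15952 genes, adjusted p below 0.05 called). The contrast was (DEX minus vehicle) minus (NE minus vehicle), each within its table. A class needed the difference and both effects called. CPM values use TMM-adjusted totals, and effects are log2 fold changes with standard errors (SE). The test was checked on simulated counts before use.

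Same-numbered libraries did not deviate together in the DEX table (r = -0.161, 0.0597 and -0.1625). In the NE table their r was positive (0.5104, 0.1473 and 0.2843), so a fit with pairs there was added after seeing the data. Vehicle 2 with NE 3 (0.16) and vehicle 3 with NE 2 (0.1392) were about as high as number 2 with itself. Unlike pairs that held a replicate 1 were negative (-0.2181 to -0.3827). Replicate 1 thus stood apart, and pairing by number was not clear between 2 and 3. Alternatives used DESeq2 1.42.0 and its size factors, limma 3.58.1 (voom), other filters, thinned counts, a GC and length correction, replicate blocks, and each library left out.

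Named genes had a called difference, a symbol and at least 1 log2 CPM on average. They were the 10 largest in each opposite group with non-overlapping libraries, the 4 largest called in 1 direction with both, the 4 largest of each sign among the rest, SMOC1, F3, DUSP5 and CCN1, and up to 4 per gene list. The comparison, these genes and the lists were chosen with earlier results of these data known. Genes given only as examples needed no minimum level, and BMP6, CXCL12 and ADRA1B among them averaged below 1 log2 CPM.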

Additional observations from a re-analysis of the deposited data

How the results depend on the processing

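Normalization, DESeq2, the count filters and a replicate block in both tables kept all counts of differing genes within 1.5 times. The full replicate block gave 646 higher and 354 lower genes, 64 and 53 opposite genes and 56 unequal genes. Other settings moved counts. Limma voom with quality weights called 1566 differences (979 higher, 587 lower), 99 and 76 opposite genes and 78 unequal ones. Thinning to equal depth left 27 genes down with DEX and up with NE, and the replicate block in the NE table alone gave 67. The GC and length correction gave 538 lower genes and 70 down with DEX and up with NE. With the block as well it gave 1512 differences, 616 lower, 100 and 93 opposite and 95 unequal genes. Effects from each table alone gave 36 and 25 opposite genes. The causes were not tested. With single libraries left out, the opposite counts ran from 34 to 76 and from 20 to 46, and the unequal count from 31 to 51. Without vehicle replicate 1 of the NE table, 850 genes were higher and 393 lower. Of 72 named genes, 65 kept their call in every alternative; of 1656 values 1616 kept it, 40 lost it and 0 changed sign. List counts stayed within 1.5 times in 360 of 391 cases, and the others were lists of structural matrix, contractility and cholesterol genes. Depth limits genes below about 1 CPM.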
